A study of Homo sapiens with 5 samples.

Results

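BNC1 and BNC2 are the 2 basonuclin genes of the human genome, and this account describes where the TF TEAD4 was found on chromatin around them in human hepatic stellate cells. A peak, a stretch of DNA enriched in TEAD4 chromatin immunoprecipitation (ChIP), was assigned to a gene when its summit, the position of greatest enrichment within it, lay in the gene body or within 100 kb of any annotated transcription start site (TSS) of the gene. By this rule 15 of 21113 peaks were assigned, 13 to BNC2 and 2 to BNC1. Assignment by distance does not say which gene a bound region acts on.

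All samples were LX-2 cells, an immortalized human hepatic stellate cell line used as a model of myofibroblastic hepatic stellate cells (MF-HSCs), treated with the solvent DMSO. TEAD4 ChIP-seq was made from 3 replicates, with 2 input samples of chromatin that had not been immunoprecipitated, the first shared by replicates 1 and 2. The list analysed here combines replicates 1 and 3 and holds 1 value per peak, so no spread between replicates, depth or control level can be given for any value below, and no test was run. There was a single condition and a single cell line, and peak data hold no expression levels with which to check the cell type.

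Basonuclins are nuclear zinc finger proteins. BNC1 is best known from keratinocytes and germ cells, and BNC2 from mesenchymal cells, where the study describes it as a TF that sets myofibroblast identity and binds chromatin together with TEAD4 and the cofactor YAP1. In the Hippo pathway, YAP1 and its paralog WWTR1 (TAZ) enter the nucleus when the pathway is off and activate transcription through DNA-bound TEAD proteins. The study found O-GlcNAc, a sugar that the enzyme OGT adds to proteins, on BNC2, TEAD4 and YAP1. Whether TEAD4 lies on the basonuclin genes themselves is the question addressed here.

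The DNA under 8 of the 15 summits is shown first, because these peaks hold the promoter-proximal summits of BNC2 and the matches to the TEAD and AP-1 motifs on which the description turns. Sequences are from the plus strand of hg38, whereas both genes lie on the minus strand. Capitals mark matches on either strand to ACATTCC (TEAD), TGACTCA and TGAGTCA (AP-1), TGTGGTT (RUNX) and CAGATG (E-box), and, where the full TEAD motif is absent, to its core CATTCC. The reverse complement of the TEAD motif reads GGAATGT. BNC2 peak 4 holds none of these matches in the stretch shown.
BNC2 peak 2, chr9:16868171-16868270: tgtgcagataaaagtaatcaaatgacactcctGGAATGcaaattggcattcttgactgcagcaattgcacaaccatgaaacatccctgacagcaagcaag
BNC2 peak 4, chr9:16705414-16705514: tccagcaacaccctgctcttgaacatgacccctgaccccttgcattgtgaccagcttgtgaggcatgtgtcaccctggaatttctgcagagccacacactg
BNC2 peak 6, chr9:16522074-16522239: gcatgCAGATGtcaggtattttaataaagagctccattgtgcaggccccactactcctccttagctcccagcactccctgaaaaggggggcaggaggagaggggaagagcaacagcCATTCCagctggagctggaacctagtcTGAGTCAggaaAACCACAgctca
BNC2 peak 8, chr9:16505286-16505386: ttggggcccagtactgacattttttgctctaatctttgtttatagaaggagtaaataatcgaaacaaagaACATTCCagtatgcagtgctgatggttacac
BNC2 peak 10, chr9:16425503-16425603: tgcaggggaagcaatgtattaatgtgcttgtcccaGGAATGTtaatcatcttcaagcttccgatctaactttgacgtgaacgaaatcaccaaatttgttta
BNC2 peak 13, chr9:16400034-16400134: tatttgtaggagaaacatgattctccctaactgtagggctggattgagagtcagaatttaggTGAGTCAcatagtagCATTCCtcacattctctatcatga
BNC1 peak 1, chr15:83320513-83320613: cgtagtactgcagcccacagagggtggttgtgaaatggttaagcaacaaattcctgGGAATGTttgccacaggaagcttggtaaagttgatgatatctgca
BNC1 peak 2, chr15:83287761-83287915: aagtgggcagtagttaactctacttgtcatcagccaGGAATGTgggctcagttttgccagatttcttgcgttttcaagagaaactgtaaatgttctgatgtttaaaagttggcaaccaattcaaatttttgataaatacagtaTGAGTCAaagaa

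BNC2 (ENSG00000173068.19) spans chr9:16409503-16870843, a gene body of 461 kb in GENCODE release 44, with 16 annotated transcripts that start at 14 distinct TSSs. Numbered from the 5′ to the 3′ end of the gene, its 13 peaks comprised 1 upstream of the gene, 10 in introns, 1 in an exon and 1 downstream. Positions in introns and exons refer to BNC2-203, the MANE Select transcript, that is the reference transcript agreed between annotation projects. In the whole list 43.5% of peaks had their summit in an intron of a protein-coding gene. This is not a like comparison, because the BNC2 peaks were assigned by a 635-kb window of which 461 kb is gene body, mostly introns.

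**Figure D1:**
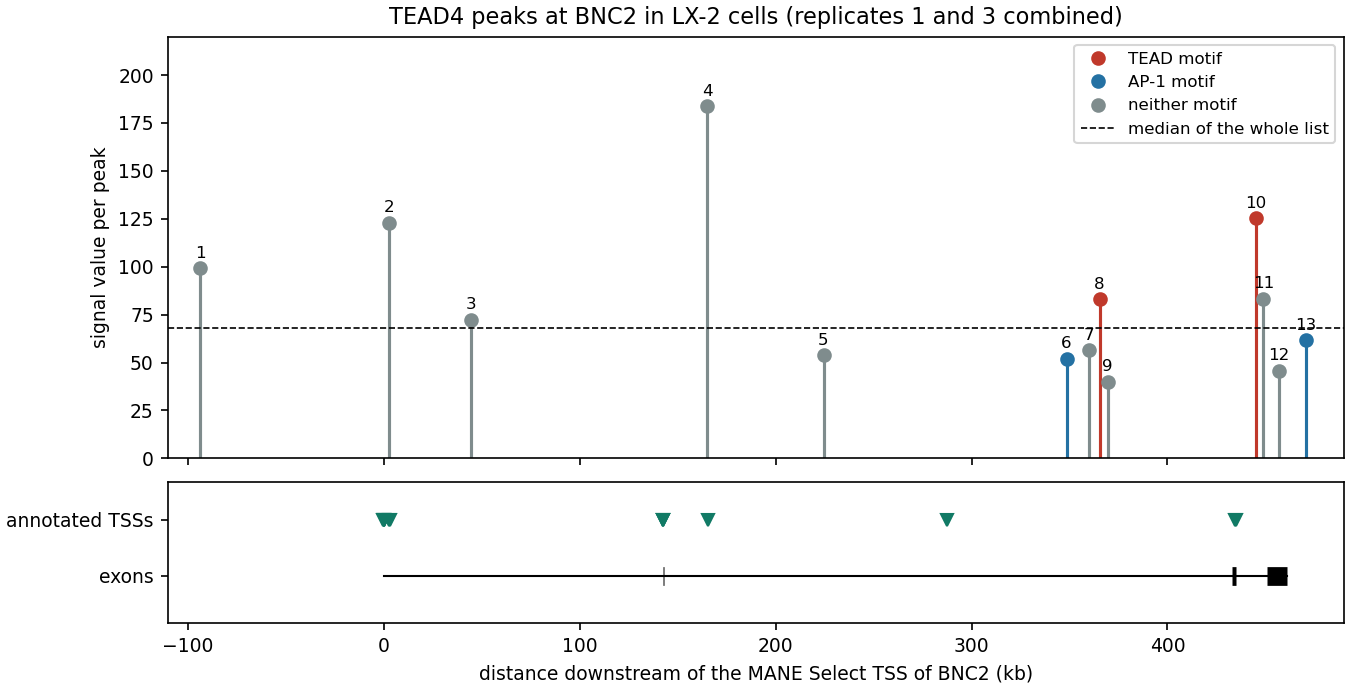
TEAD4 peaks along BNC2. The upper panel gives the signal value of each of the 13 peaks against its distance from the MANE Select TSS in kb, coloured by the TEAD and AP-1 motifs within 100 bp of the summit, with a dashed line at the median of the whole list, 68.1. The lower panel shows exons as boxes and annotated TSSs as triangles. Peaks 2 and 4 lie beside TSSs, and peaks 6 to 9 and 10 to 13 form 2 runs toward the 3′ end.

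Toward the 5′ end, peak 1 (chr9:16964306-16964438) lay 93473 bp upstream of the nearest BNC2 TSS, inside the lncRNA gene ENSG00000237153. Peak 2 (chr9:16868117-16868302) and peak 3 (chr9:16825872-16826315) were both in intron 1, a 132160-bp intron, at 1.84% and 33.7% of its length. Intron 1 thus held 2 of the 10 intronic peaks of BNC2. Over the whole list, 35.5% of the 9190 intronic peaks were in a first intron. This share is pooled over genes whose intron lengths differ and was not matched to BNC2, so it is not a like comparison.

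In the middle of the gene, intron 3 (144711 bp) held peak 4 (chr9:16705290-16705649) at 15.4% and peak 5 (chr9:16646000-16646443) at 56.4% of its length. Introns 2 and 4, which are shorter at 10362 bp and 30217 bp, held 0 listed peaks. Intron 5 (115005 bp) held 4 peaks, the most of any BNC2 intron. They were peak 6 (chr9:16521955-16522398), peak 7 (chr9:16510511-16510954), peak 8 (chr9:16505114-16505557) and peak 9 (chr9:16501008-16501451), between 26.4% and 44.6% of the intron. Their summits fell within 20947 bp.

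At the 3′ end, the 15905-bp intron 6 held peak 10 (chr9:16425436-16425667) and peak 11 (chr9:16421516-16421959). Peak 12 (chr9:16413396-16413839) had its summit in the 3′ untranslated region in exon 7. Peak 13 (chr9:16399862-16400305) lay beyond the end of the gene, inside the lncRNA gene LINC03041, and was assigned through its distance of 35646 bp to the TSS of the short transcript BNC2-216. The summits of peaks 10 to 13 fell within 25469 bp. These 4 and the 4 of intron 5 were the runs of summits spaced by less than 15 kb, a spacing chosen after the positions were seen. The other 5 peaks stood at least 42126 bp from their nearest assigned neighbour, and the widest gap, 124045 bp, separated peak 5 from peak 6.

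BNC2 was the nearest protein-coding gene, by TSS, to 13 of its 13 peaks. The nearest TSSs of another protein-coding gene belonged to CNTLN for peaks 1 to 5 and to CCDC171 for peaks 6 to 13, at distances from 170666 to 488760 bp. When lncRNA genes were included, a BNC2 TSS was the nearest one for 4 of 13 peaks. The closest lncRNA TSS, that of LINC03041, lay 2628 bp from the summit of peak 12. The other coding TSSs nearest to these peaks thus lay outside the BNC2 window, whereas several lncRNA TSSs lay inside it. These counts were not compared with those of other gene windows.

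At the promoters, the 14 TSSs of BNC2 formed 6 groups when TSSs less than 1 kb apart were joined. A promoter peak was defined as a summit within 2.5 kb of a TSS, and BNC2 had 2 of them, peak 2 and peak 4. Of the 20007 protein-coding genes in GENCODE, 16.7% had a promoter peak and 3.95% had at least as many as BNC2, and 18.9% of all peaks lay within this distance of a coding TSS. Among the 403 genes with a window within 20% of the length of that of BNC2, 112 had a promoter peak and 45 had at least as many as BNC2. Genes were not matched on the number of TSSs, which adds to the stretch counted as promoter.

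Both promoter summits were closest to TSSs other than the reference one. Peak 2 had its summit 50 bp upstream of the TSS of BNC2-201, and the peak interval covered that TSS at position 16868170. The same summit lay 2450 bp downstream of the MANE Select TSS at position 16870670, inside the 2.5-kb limit by 50 bp. Peak 4 had its summit 382 bp upstream of the TSS of BNC2-207 at position 16705082, within intron 3 of the reference transcript. The peak list does not tell which of these start sites is used in LX-2 cells.

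The start sites differed in CpG content, given as the ratio of observed CpG dinucleotides to those the C and G content would give, within 500 bp of the TSS. The 5 TSSs of the group that holds the MANE Select TSS had ratios from 0.803 to 0.841. The group of BNC2-201, BNC2-213 and BNC2-214 had ratios from 0.275 to 0.323, and BNC2-207 had 0.310. Across all protein-coding genes, taken at a single reference TSS per gene, the median was 0.725 and 66.3% exceeded 0.6. The like value for BNC2 is that of its MANE Select TSS, 0.841, and alternative TSSs of other genes were not measured. All groups of BNC2 TSSs other than that of the MANE Select TSS had ratios between 0.191 and 0.350. Most groups that a summit could lie near were therefore CpG-poor. The promoter summits were closest to such start sites, and the nearest summit to the CpG-rich group was peak 2 at 2450 bp. The remaining 3 groups of BNC2 TSSs had 0 promoter peaks, with their nearest summits at 22533, 60908 and 10177 bp.

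The signal value, the enrichment assigned to each peak by the peak caller, has no natural unit and is read here as a rank within the list, where it ran from 6.57 to 1074 with a median of 68.1. Among the BNC2 peaks it ranged from 39.9 to 183.8 with a median of 72.4. Of these peaks, 7 were above the list median and 6 at or below it, 3 were at or above the upper quartile of 113.6 and 0 at or above the top decile of 191.9. The BNC2 peaks were thus spread across the middle of the list and not drawn from its strong end.

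The largest BNC2 signal was that of peak 4, near the BNC2-207 TSS, at 183.8 (percentile 89.1, rank 2309). Peak 10 in intron 6 followed with 125.4 and peak 2 near the BNC2-201 TSS with 122.9, at percentiles 78.9 and 78.2. The upstream peak 1 had 99.2. These were the strongest BNC2 peaks, and they came from both ends and the middle of the gene.

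Peaks 11 and 8 had signals of 83.3 and 83.1, and peak 3 had 72.4. Below the list median were peak 13 with 61.8, peak 7 with 56.4, peak 5 with 53.7 and peak 6 with 52.0. The weakest were peak 12, in the 3′ untranslated region, with 45.8 and peak 9 with 39.9. In the intron 5 run, peak 8 was the one peak above the list median. Without replicate values it cannot be said which neighbours in this order differ, and peaks 2 and 10 or 8 and 11 are nearly equal.

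Reproducibility between the combined replicates is scored by the irreproducible discovery rate (IDR), scaled so that 1000 is the highest score. Of the BNC2 peaks, 12 of 13 had the highest score, against 76.1% of all peaks, and peak 9 had 835. The lowest score in the list was 830. The 13 peaks shared the highest −log10 q-value of the list, 4.765, so this column does not rank them. A width of 444 bp, the most common in the list, was found for 9 of 13 BNC2 peaks and for 13039 of all 21113.

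BNC1 (ENSG00000169594.14) spans chr15:83255884-83284664, a gene body of 28.8 kb, with 2 annotated transcripts and 2 TSSs. It had 2 peaks, both upstream of the gene and both inside the lncRNA gene ENSG00000259986. Its 5 exons and 4 introns held 0 listed summits. No listed summit lay within 2.5 kb of either TSS.

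Peak 1 of BNC1 (chr15:83320341-83320784) was 35899 bp upstream of the MANE Select TSS and had a signal of 38.8, at percentile 14.7, with an IDR score of 904. Peak 2 (chr15:83287646-83287972) was 3147 bp upstream of the same TSS and had a signal of 253.1, at percentile 94.5 and rank 1153 of the list, with the highest IDR score. The weaker and the stronger BNC1 peak therefore lay on either side of the range of the 13 BNC2 peaks. With 2 peaks, the BNC1 median of 145.9 describes neither.

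The BNC1 TSSs had CpG ratios of 0.992 (BNC1-201, MANE Select) and 0.878 (BNC1-202). Both are higher than the ratios of the TSSs beside the BNC2 promoter peaks. The nearest TSS of any other coding gene to the BNC1 summits was that of HDGFL3, at 112740 bp from peak 1 and 79988 bp from peak 2.

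**Figure D2:**
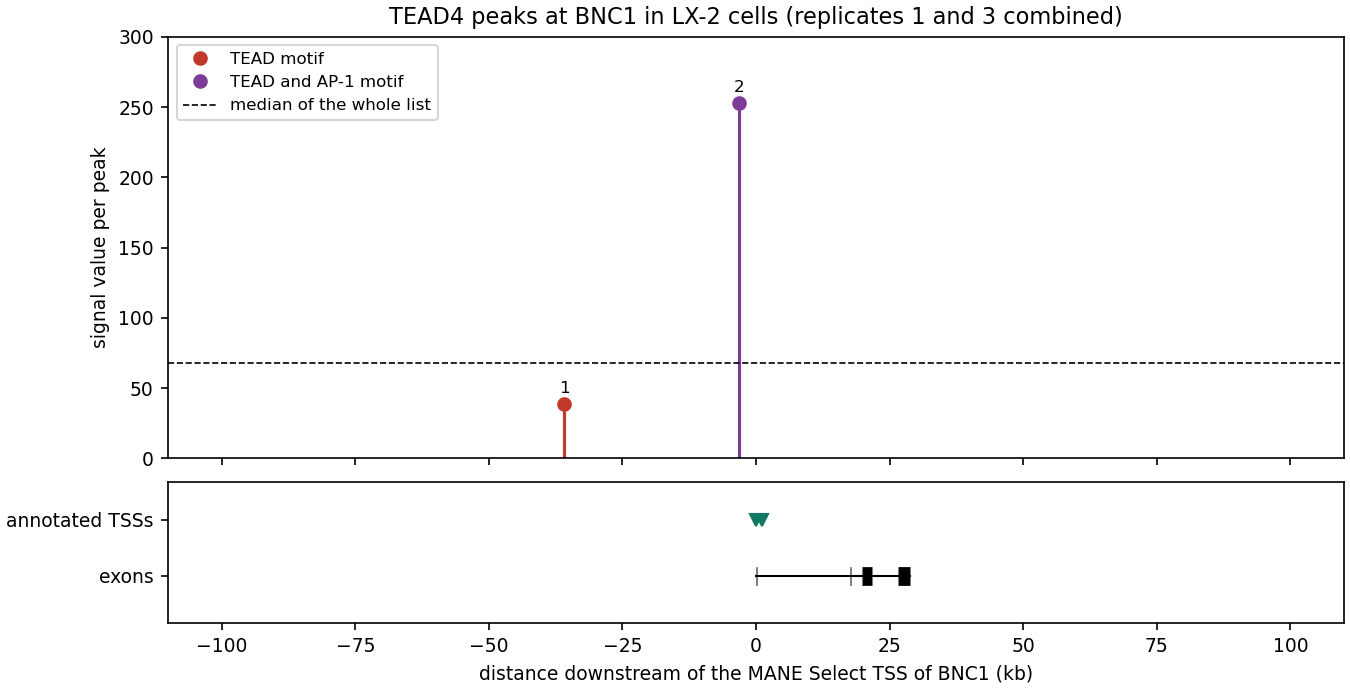
TEAD4 peaks around BNC1. The upper panel gives the signal value of each peak against its distance from the MANE Select TSS in kb, coloured by motif, with a dashed line at the list median of 68.1. The lower panel shows exons as boxes and TSSs as triangles. The 2 peaks lie upstream at signals of 38.8 and 253.1, and the gene body holds none.

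Motifs were read within 100 bp of each summit, a stretch of 201 bp, and a match describes the sequence without showing that a protein bound it there. The TEAD motif was found at 2 of 13 BNC2 summits and 2 of 2 BNC1 summits, against 23.0% of all peaks. In BNC2 these were peak 10, with the centre of the motif 12 bp from the summit on the minus strand, and peak 8, with the motif 23 bp away on the plus strand. In BNC1 the motif was on the minus strand at both peaks, 9 bp from the summit of peak 1 and 11 bp from that of peak 2. All 4 matches can be read in the sequences above and lay within 25 bp of their summits.

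The shorter core CATTCC, which also counts the full motif, was found at 8 of 13 BNC2 summits and both BNC1 summits, against 46.8% of all peaks. At peak 2, beside the BNC2-201 TSS, the core lay 14.5 bp from the summit and was not preceded by the A of the full motif. Peaks 1, 3, 5, 6 and 13 also held the core alone. Peak 4, the strongest BNC2 peak, held neither form within 100 bp, and its GC content of 57.2% was the highest of the BNC2 peaks. GC content of the BNC2 peaks otherwise ran down to 30.3% at peak 9, with a median of 43.8% against 44.8% for the list.

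AP-1 proteins, the FOS and JUN family, bind the motif searched next. It was found at 2 of 13 BNC2 summits and 1 of 2 BNC1 summits, against 25.4% of all peaks. At BNC2 peak 13 it lay 15 bp from the summit, and at peak 6 it lay 43 bp away. At BNC1 peak 2 it lay 96 bp from the summit, in the same peak as a TEAD motif. A TEAD or AP-1 motif was present at 4 of 13 BNC2 summits, against 43.9% of all peaks. Both motifs together were present at 0 of 13 BNC2 summits and 1 of 2 BNC1 summits, against 4.49% of all peaks.

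The RUNX motif was found at 1 of 13 BNC2 summits, peak 6, against 9.53% of all peaks. The E-box was found at 2 of 13 BNC2 summits, peaks 6 and 11, against 16.7%, and peak 11 held it in 2 copies. Neither was found within 100 bp of a BNC1 summit. Peak 6 was the BNC2 peak with the most kinds of motif, holding AP-1, RUNX, the E-box and the TEAD core, although its signal of 52.0 was below the list median. At 8 of 13 BNC2 summits none of the 4 full motifs was found, a count for which the share over all peaks was not computed. The motif counts over so few peaks are read beside the list shares as a description and not as a difference.

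**Figure D3:**
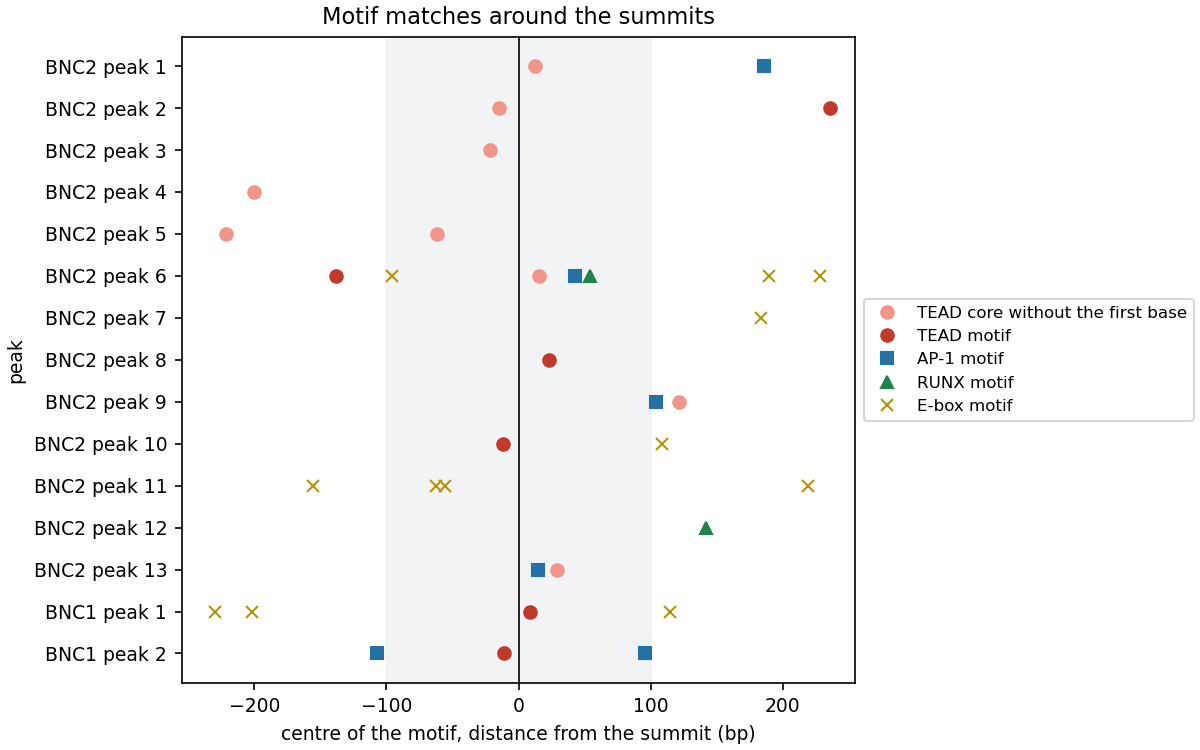
Motif matches around the 15 summits. Each line is a peak, the horizontal axis is the distance in bp of the centre of a match from the summit up to 250 bp on the plus strand's scale, and the shaded band marks 100 bp to either side. Full TEAD motifs of BNC2 peaks 8 and 10 and of both BNC1 peaks lie within 25 bp of the summit. Those of BNC2 peaks 6 and 2 lie outside the band, 138 and 236 bp from the summit, and E-box matches are scattered.

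Long genes collect more peaks, so the counts were set beside those of other genes. The window of BNC2 was 635 kb and that of BNC1 201 kb, against a median of 210.8 kb over 20007 protein-coding genes. A summit was found in the window of 72.0% of these genes. At least 13 summits, the number of BNC2, were found for 1.0% of genes, and at least 2, the number of BNC1, for 51.1%.

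Per length, BNC2 had 2.05 summits per 100 kb of window and 2.38 per 100 kb of gene body, and BNC1 had 0.994 per 100 kb of window. The median gene had 0.517 summits per 100 kb of window. As many summits per 100 kb as BNC2 or more were found for 12.7% of genes, and as many as BNC1 or more for 37.6%. Among the 403 genes with a window within 20% of the length of that of BNC2, the median was 3 peaks, the middle of the distribution ran from 1 to 7, and 38 genes (9.43%) had 13 or more. Among the 14620 genes with a window of similar length to that of BNC1, the median was 1 peak and 47.2% had 2 or more. The share of genes with at least as many peaks as BNC2 was thus 1.0% over all genes and 9.43% over genes with a window within 20% of its length, and it was 5.24% over those within 50%.

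**Figure D4:**
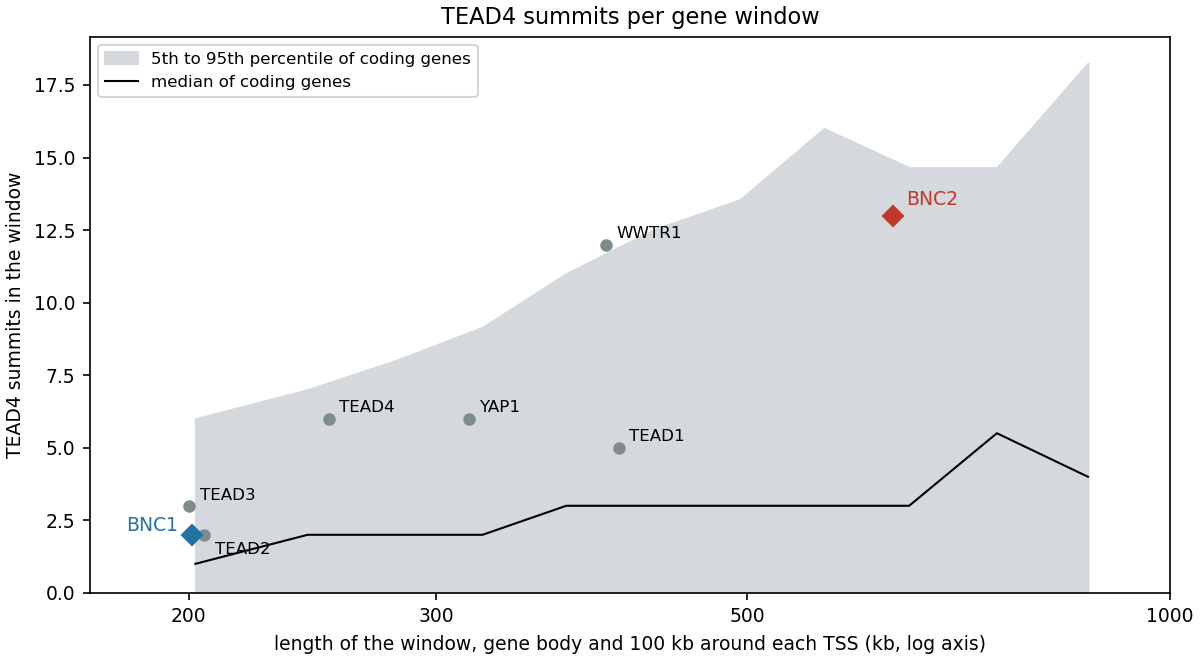
TEAD4 summits per gene window. The horizontal axis is the window length in kb (log axis) and the vertical axis the number of summits. The line is the median and the band the 5th to 95th percentile of protein-coding genes in bins of window length. BNC2 with 13 summits lies above the median and inside the band, and BNC1 with 2 lies just above the median.

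Peaks were divided into promoter peaks, other peaks of the gene body, and flanking peaks outside both. BNC2 had 2, 9 and 2, and no other protein-coding gene had the same 3 counts. The nearest patterns, by the sum of the differences over these 3 counts with ties taken in order of closest window length, were those of NFIB, a nuclear factor I TF, and TTC33, each with 2, 9 and 1. HDAC9, a histone deacetylase gene, had 1, 9 and 2. TLN2, which encodes a talin that links integrins to actin, had 1, 9 and 3, in a window of 645 kb, the one closest in length to that of BNC2 among these 5. The kinase gene STK32B had 0, 9 and 2. The pattern of BNC1, 2 flanking peaks and no others, was shared with 2109 other genes.

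Beside its partners, BNC2 had more peaks in its window than any of the genes encoding TEAD proteins, YAP1 and WWTR1. All 6 of these genes had a peak, against 72.0% of all coding genes, with a median of 5.5 and a range from 2 to 12. A promoter peak was found for 4 of them, against 16.7%. These shares were not matched on window length or number of TSSs. The windows of TEAD4, YAP1, WWTR1 and TEAD1 ran from 251715 to 405023 bp, longer than the median of 210.8 kb over all coding genes. WWTR1 had 12 peaks, TEAD4 and YAP1 had 6 each, TEAD1 had 5, TEAD3 had 3 and TEAD2 had 2. Per 100 kb of window the order differed. WWTR1 with 3.03 and TEAD4 with 2.38 were denser than BNC2 with 2.05, YAP1 had 1.90, and BNC1 with 0.994 was next to TEAD2 with 0.975.

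The study lists TFs that define MF identity, and 24 of them other than BNC2 were compared with it. A peak was found in the window of 20 of the 24, against 72.0% of all coding genes, and a promoter peak for 6, against 16.7%. Their median was 2 peaks, the same as for all coding genes. None of the 24 had as many peaks as BNC2, but their windows are all shorter, and 7 were denser per 100 kb. The 24 include clustered HOXB and FOX genes whose windows overlap and share peaks. Clustered HOXB genes are among the 7, so these counts are not of independent loci. NR2F2, a nuclear receptor gene, had the most with 11 peaks, and all 11 lay in the flanks. PRRX1, a mesenchymal homeobox gene, and OSR1, a zinc finger gene, were among the 4 TFs with 0 listed peaks. So was TRPS1, whose window of 517453 bp was the longest of the 24.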

How the data were processed

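TEAD4 ChIP-seq was made from 3 replicates of DMSO-treated LX-2 cells with 2 inputs. The authors mapped reads to hg38 with Chromap. By the ENCODE IDR pipeline they found only replicates 1 and 3 concordant enough, so replicate 2 is not in the list. That pair was combined into 1 deposited list of 21113 peaks. The deposited signal value per peak, IDR score and −log10 q-value were computed by the authors. Their meanings were read from the layout and values, and the peak caller is not given in the sources used here. Depth is unknown.

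All peaks ended inside hg38 chromosomes. Summits were assigned to genes with GENCODE release 44. The named genes were the members, the genes of the BNC2/TEAD4/YAP1 complex and paralogs, MF identity TFs (at most 4 named), the nearest coding genes, and 5 genes with the most similar peak pattern, ties taken by closest window length. Members and lists were chosen with earlier results of these data known. Alternatives changed the peak set, distances, TSSs, motif window, motif and length band. The code recovered planted motifs and summits in simulated data. Python 3.11.15, numpy 2.4.6, pandas 2.3.3 and matplotlib 3.10.9 were used.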

Additional observations from a re-analysis of the deposited data

How the results depend on the processing

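Each value was recomputed with 1 choice changed at a time, 40 alternatives in all, of which 26 stayed within tolerance and 14 did not. The tolerance was 1.5 times for counts and median signals and, for shares of genes, the Wilson 95% interval of the reported share, which is narrow for the many genes of similar window length to BNC1. For BNC2, peaks above the median signal value numbered 7, the MANE Select TSS alone gave 1 promoter peak, and within 250 bp the TEAD motif was found at 4 summits and the AP-1 motif at 4, against 28.0% and 33.2% of all peaks. With CATTCC the TEAD count was 8, against 46.8%. A band of 50% of window length gave 5.24% of genes with as many peaks or more. The BNC2 count stayed between 11 and 13 under the other peak sets and distances. For BNC1, the count was 1 with the highest IDR score alone, 1 above the median signal value and 0 in the gene body alone. Its median signal was 253.1 with the highest IDR score alone, since 1 peak remained. A promoter distance of 10 kb gave 1 promoter peak, and an AP-1 window of 50 bp gave 0. Bands of 10% and 50% gave 46.3% and 48.7% of genes, close to the reported 47.2% although outside its interval of 46.4% to 48.0%. Beyond the changes made by each setting's own construction, the cause was not tested. No paired analysis was possible because values of single replicates were not analysed here, and none was left out in turn. Absence from the list does not show absence of TEAD4.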

Other observations

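Beyond the windows, the nearest listed summits are given here beside a genome-wide density of 0.684 summits per 100 kb. The first listed summit above the BNC2 window lay 379 kb past its edge, in CNTLN, with a signal of 41.5. The first one below lay 82.9 kb past the edge, in LINC03041, with a signal of 42.3. LINC03041 (chr9:16203935-16410990) held 3 summits, with signals from 42.3 to 95.2, and 1 of these was BNC2 peak 13. Around BNC1, the first summit below the window lay 70.7 kb past its edge, where HDGFL3 and TM6SF1 overlap, with a signal of 59.7. The first one above lay 197.9 kb past the edge, in SH3GL3, with a signal of 109.4.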
